A study of Mus musculus with 33 samples.

Results

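The 49 genes described here repair damaged DNA or signal that it is present, and they were taken by gene name from a list of homologous recombination, end joining, Fanconi, excision repair and mismatch repair genes. All 49 listed names were found among the 53735 gene names of each of the authors' 9 deposited tables, and all 49 carried an adjusted p in every table. By role they comprised 12 homologous recombination genes, 11 genes of break sensing and checkpoint signalling, 6 end joining genes, 5 Fanconi anaemia genes and 5 nucleotide excision repair genes. A further 3 acted in translesion synthesis or nucleotide supply, 6 in base excision or single-strand break repair, and 1 in mismatch repair. The question asked of them was how their messenger RNA responded to radiation in 3 kinds of immune cell from one tumour model.

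The cells were sorted from pancreatic tumours of C57BL/6 mice as CD8 T cells, inflammatory monocytes (IM) or macrophages associated with the tumour (TAM), and their RNA was sequenced. Each tumour was grown from 100000 KCKO cells, a mouse pancreatic tumour line, placed in the tail of the pancreas. Stereotactic body radiotherapy (SBRT), a few large and precisely aimed doses, was given as 4 fractions of 6 Gy from day 6 to day 9. Microspheres that released 0.5 µg of interleukin 12 (IL-12), a cytokine that activates T cells and natural killer cells, were injected into the tumour on day 10. Every group therefore carried KCKO tumours in C57BL/6 mice, and the groups of each population were unirradiated tumours, SBRT, IL-12 microspheres, and SBRT followed by IL-12 microspheres (the combination). The 33 libraries comprised 3 for every group of IM and of CD8 T cells, and for TAM 3 with IL-12 alone but 2 for unirradiated, SBRT and combination. The labels do not say which groups received empty microspheres, how many days passed before harvest, whether each library came from its own mouse, or the age and sex of the mice. The files give 1 mean level per gene and population and the fold changes of each treated group, with no value per library, so the spread behind each fold change is known only as its standard error.

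Double-strand breaks, the lesion by which radiation kills cells, are repaired mainly by recombination and by end joining. Homologous recombination copies the lost sequence from the sister chromatid and runs in S and G2 phase, when that copy exists, so many of its genes are transcribed mainly in dividing cells. End joining rejoins the broken ends directly in any phase of the cycle, and resting cells such as most tissue macrophages rely on it. The Fanconi proteins unhook crosslinks between the strands and pass the lesion to recombination, excision repair removes damaged bases, and checkpoint kinases hold the cycle until the damage is mended. The transcription factor p53, stabilised after a break, switches on cell cycle inhibitors and a few repair genes.

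Promoter sequences are shown for Polk, Topbp1, Rad51ap1 and Fignl1, each called in a population after SBRT or after the combination. Topbp1 and Fignl1 were not called after SBRT alone, and Rad51ap1 was also called in CD8 T cells after IL-12 without radiation. RefSeq, on build GRCm38.p6, held a promoter entry for 40 of the 49 members. Exo1 is among the 9 with no entry. The bases of Polk were chosen by rule, as the only member called in the macrophage SBRT table that had an entry, and the other 3 after their values were seen. Each run reads 5′ to 3′ on the gene's own strand, and capitals mark a match to one of the motifs searched. The Polk run is chr13:96542580-96542829 on the minus strand, the Topbp1 run chr9:103305077-103305214 on the plus strand, the Rad51ap1 run chr6:126939588-126939837 on the minus strand and the Fignl1 run chr11:11808963-11809212 on the minus strand. All end at the base before the gene's start in the GENCODE annotation, for which the last 112 bases of the Topbp1 entry were left out.
Polk: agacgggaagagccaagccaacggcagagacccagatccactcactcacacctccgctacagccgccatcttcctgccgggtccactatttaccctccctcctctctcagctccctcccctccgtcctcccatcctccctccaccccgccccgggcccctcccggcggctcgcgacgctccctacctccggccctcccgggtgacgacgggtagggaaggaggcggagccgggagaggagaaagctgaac
Topbp1: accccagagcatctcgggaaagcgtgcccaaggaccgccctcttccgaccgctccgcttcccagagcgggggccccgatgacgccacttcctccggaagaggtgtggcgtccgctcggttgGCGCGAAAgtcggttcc
Rad51ap1: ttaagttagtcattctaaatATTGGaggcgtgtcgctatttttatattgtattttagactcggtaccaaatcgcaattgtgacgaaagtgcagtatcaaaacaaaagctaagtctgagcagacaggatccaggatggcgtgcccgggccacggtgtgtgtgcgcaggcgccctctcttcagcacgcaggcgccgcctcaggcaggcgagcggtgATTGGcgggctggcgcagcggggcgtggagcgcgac
Fignl1: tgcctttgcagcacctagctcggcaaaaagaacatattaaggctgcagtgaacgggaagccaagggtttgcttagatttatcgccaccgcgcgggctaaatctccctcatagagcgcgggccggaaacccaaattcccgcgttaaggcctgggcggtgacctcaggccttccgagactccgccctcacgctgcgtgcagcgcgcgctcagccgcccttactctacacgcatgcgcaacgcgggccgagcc

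The motifs searched, on both strands of the 250 bases before each start, were the E2F type (TTTCCCGC, TTTCGCGC, TTTGCCGC or TTTGGCGC), the CCAAT box (CCAAT), the CHR element of cell cycle genes (TTTGAA) and the p53 half-site. No match marked here overlaps another. Polk has a further RefSeq entry, starting 23392 bases away, which held the p53 half-site and is not shown. In the Topbp1 run the capitals mark TTTCGCGC on the opposite strand, 129 to 122 bases before the RefSeq start. In the Rad51ap1 run they mark CCAAT on the opposite strand at 230 to 226 and at 36 to 32 bases before the start. The printed Polk and Fignl1 runs held no E2F-type letters. An E2F-type match stood in 7 of the 40 members with an entry, 17.5%, beside 2.16% of the 27025 genes in the RefSeq table, where a gene counts if any of its entries matches: Brca2, Bard1, Chek2, Mdc1, Topbp1, Xrcc6 and Fancg. A CCAAT box stood in 47.5% of members and 37.5% of genes, a p53 half-site in 7.5% and 8.20%, and a CHR element in 2.5% and 18.3%. These matches describe the letters of the promoters and are not measured binding sites.

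The sorted populations carried the markers their labels name. Summed over fixed lists and per 1000000 of the population's total level, monocyte markers such as Ly6c2 and Ccr2 reached 5059 in IM, 943 in TAM and 849 in CD8 T cells, macrophage markers such as Adgre1 and C1qa reached 7037 in IM and 27692 in TAM, and CD8 T cell markers such as Cd8a and Cd3e reached 5709 in CD8 T cells, 37.4 in IM and 34.4 in TAM. IM thus carried macrophage transcripts as well. Macrophage markers summed to 234.8 and CD4 T cell markers to 525 in the CD8 T cells. The tumour epithelium list summed to 22.3 in IM, 47.7 in TAM and 35.7 in CD8 T cells. Neutrophil markers reached 251.8 in IM, 13.4 in TAM and 8.21 in CD8 T cells, and dendritic cell markers 50.3, 65.2 and 159.7 in that order. One endothelial marker was listed at 0 in TAM and in CD8 T cells, and every other marker was detected in every population. The share of these other cells in the results below was not tested.

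Repair genes stood highest in CD8 T cells. In the authors' deposited tables, which were normalised separately for each population, the mean level per 1000000 was highest in CD8 T cells for 44 of the 49 members, in TAM for 4 (Nbn, Chek2, Dclre1c and Parp2) and in IM for 1 (Fanca). The median ratio of CD8 T cells to IM was 3.46 over the members, beside 1.45 over all genes with a mean level of at least 50 in both, and the median ratio of CD8 T cells to TAM was 2.71, beside 1.49. TAM stood 1.23 times above IM at the median, beside 0.99. The medians over members include genes with a mean level under 50, which the medians over all genes leave out, so the compared sets are not matched in level. No share of all genes that stood highest in CD8 T cells was taken to set beside the 44 members. The recombination nuclease Exo1 had a mean level of 0.529 per 1000000 in IM, 2.35 in TAM and 20.8 in CD8 T cells, 39.4 times higher in CD8 T cells than in IM. Clspn, the adaptor that lets ATR activate Chek1, stood at 0.717, 2.11 and 27.7 per 1000000 in the same order, and the DNA end-binding subunit Xrcc5 (Ku80) at 0.90, 2.01 and 33.5. The end-joining nuclease Dclre1c (Artemis), which opens hairpin ends, ran the other way, at 68.9 per 1000000 in IM, 77.5 in TAM and 33.5 in CD8 T cells. Fanca, a subunit of the Fanconi core complex, stood at 65.1 per 1000000 in IM, 25.9 in TAM and 37.4 in CD8 T cells. No spread over libraries accompanies these levels, so their order was not tested. In IM 7 members had a mean level under 50, beside 1 in TAM and 0 in CD8 T cells. Among the 7 were Exo1 at 25.3, Clspn at 34.3 and Xrcc5 at 43.1, so their large ratios to IM rest on low levels there. The libraries were not strand-marked, so reads could not be told apart for the 22 members whose exons overlap another gene, among them Fanca with Zfp276, Rad54l with Lrrc41, Fanci with Polg and Palb2 with Gm16326. Exo1, Polk, Fignl1, Topbp1, Rad51ap1, Blm, Xrcc2, Clspn, Fancb and Chek1 overlap no other gene's exons.

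**Figure D1:**
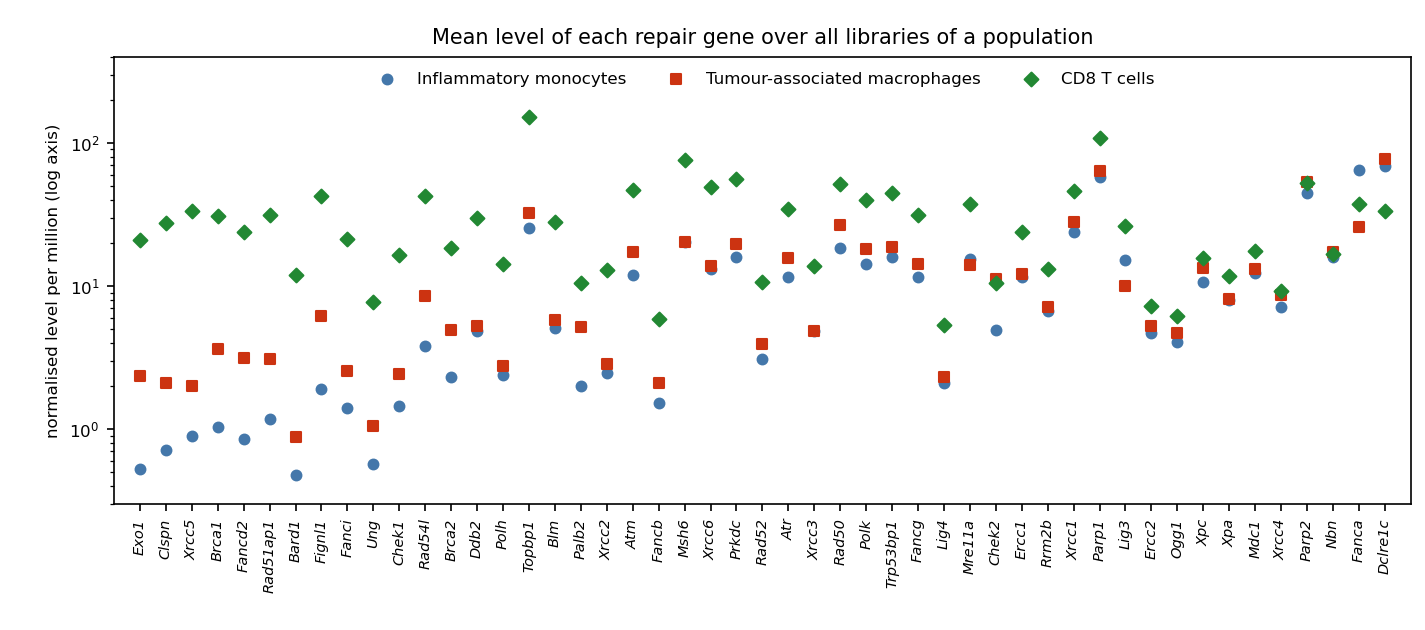
Mean level of each member per 1000000 of the population's total (log axis) in IM, TAM and CD8 T cells, one point per gene and population, averaged by the authors over all libraries of a population. The points of CD8 T cells lie highest for 44 of the 49 genes; heights of different genes are not adjusted for length and are not to be compared.

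After SBRT alone few members passed the test, which called a gene at a deposited adjusted p under 0.05. The authors' deposited tables gave calls for 0 of 49 members in IM, where 0.519% of all 19273 tested genes were called. In TAM 2 were called, 4.08% of members beside 2.08% of 18436 genes. In CD8 T cells 1 was called, 2.04% of members beside 0.471% of 16359 genes. In IM the authors' test called none, and 8 members had an unadjusted p under 0.05, 4 in each direction, beside 7.07% of all tested genes. In TAM the translesion polymerase Polk rose and the recombination nuclease Exo1 fell. In CD8 T cells Rad51ap1, an accessory factor of recombination, rose. The members' median log2 fold change was -0.02 in IM, -0.16 in TAM and 0.11 in CD8 T cells, with 25, 31 and 13 of 49 below 0. A member's fold change in bulk RNA cannot tell apart fewer cells that carry the transcript and less of it per cell.

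**Figure D2:**
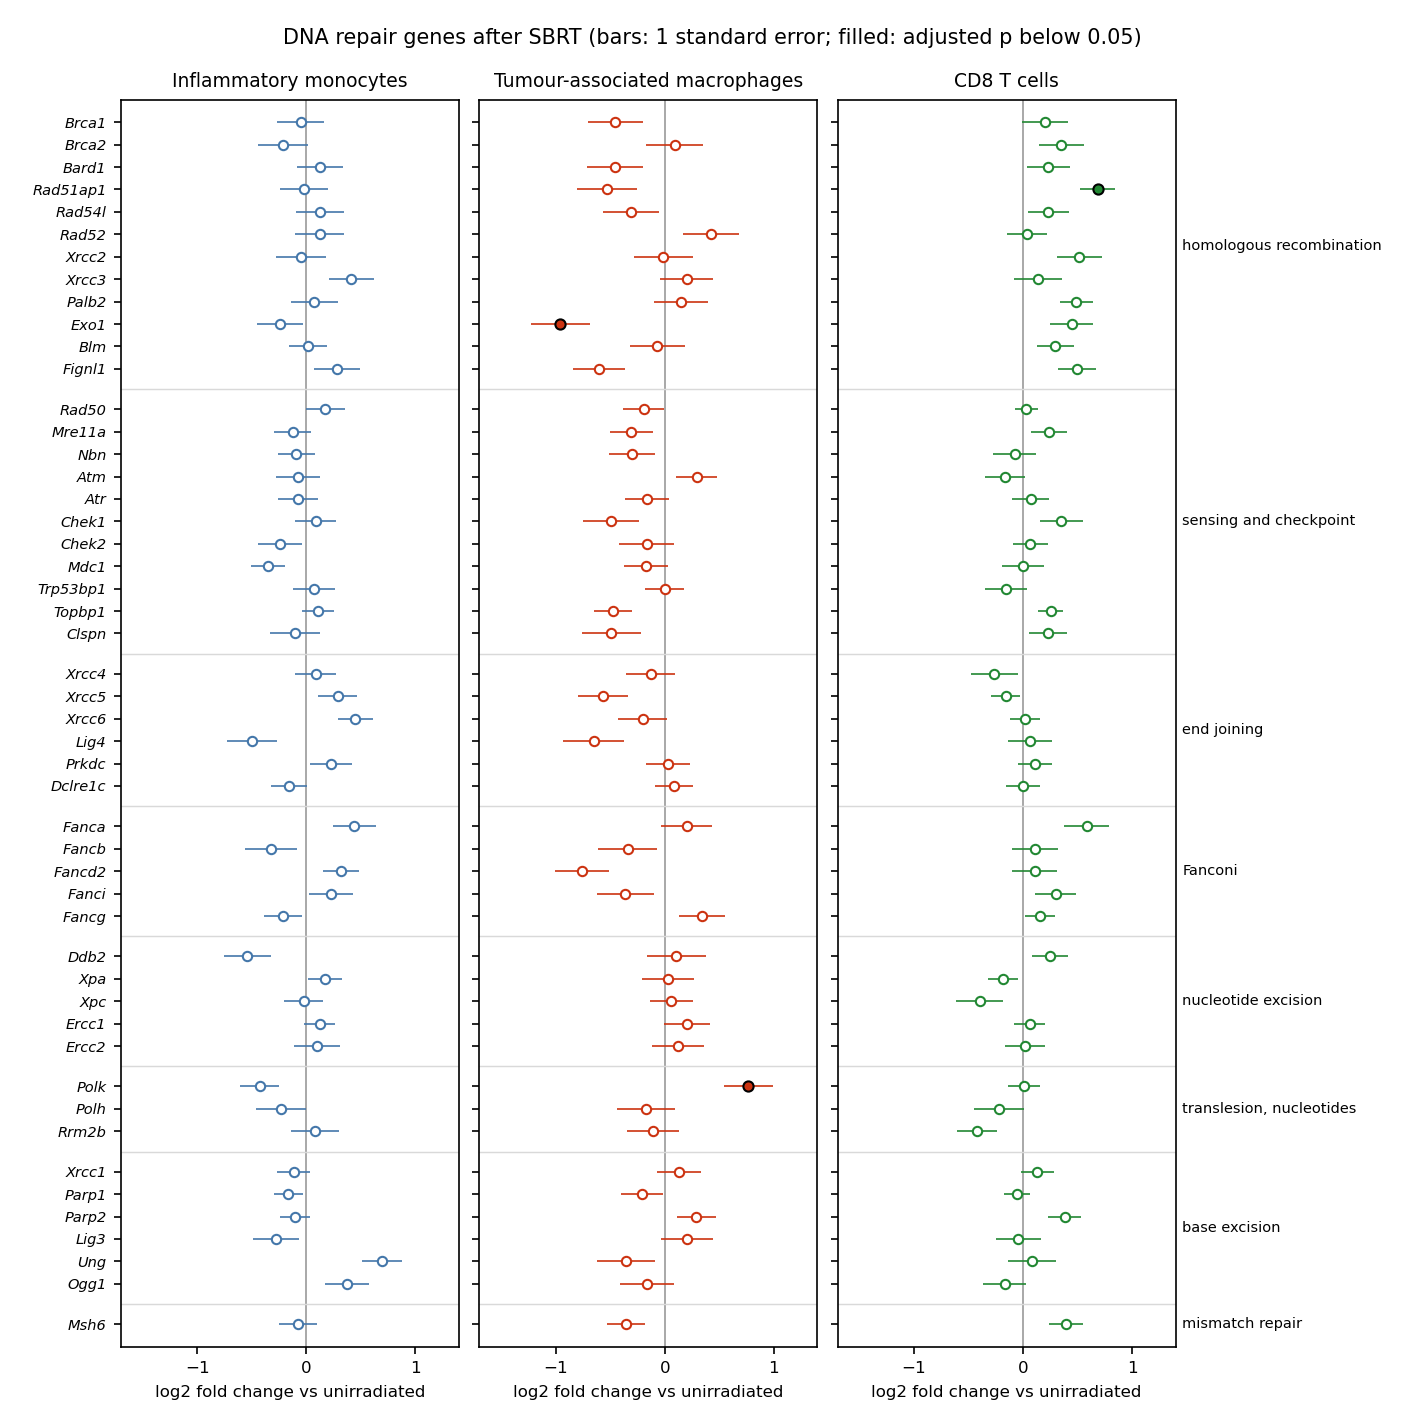
Log2 fold change of each member after SBRT against unirradiated tumours in the 3 populations, from the authors' deposited tables, with bars of 1 standard error and genes grouped by role. Filled points passed the adjusted test: Exo1 and Polk in TAM and Rad51ap1 in CD8 T cells, while no IM point is filled.

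Of the 3 calls after SBRT, 2 were among the 12 homologous recombination genes, 1 that fell in TAM and 1 that rose in CD8 T cells. So few calls do not describe the group. Exo1 (chr1:175880581-175913489), which resects broken ends to expose single strands, had a log2 fold change of -0.96 ± 0.27 (SE) after SBRT in TAM in the authors' deposited table, with a deposited adjusted p of 0.027. This is a shrunken fold change of 0.515 against unirradiated tumours. In the other populations' deposited tables Exo1 stood at -0.25 ± 0.21 in IM and 0.45 ± 0.19 in CD8 T cells, neither called. Rad51ap1 rose by 0.68 ± 0.16 in CD8 T cells in the authors' deposited table, with an adjusted p of 0.016, and stood at -0.53 ± 0.28 in TAM and -0.02 ± 0.22 in IM. That call was lost, with an adjusted p of 0.41, when the Wald statistics were scaled by their own spread over all genes. The AAA ATPase Fignl1, which acts in recombination, stood at -0.60 ± 0.24 in TAM, 0.28 ± 0.21 in IM and 0.50 ± 0.17 in CD8 T cells in the deposited tables, with none called.

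The 12 recombination members all had a log2 fold change above 0 in CD8 T cells after SBRT, from 0.04 for the annealing factor Rad52 to 0.68, with a median of 0.32, and 1 of the 12 was called. In TAM 8 of the 12 were below 0 in the authors' deposited table, with a median of -0.19, and Rad52 was the highest at 0.42. In IM 5 of the 12 were below 0 and the range ran from -0.25 (Exo1) to 0.41 for Xrcc3, a recombination mediator. The tumour suppressors Brca1 and Bard1, which together form a ubiquitin ligase, stood at -0.45 and -0.45 in TAM, and at 0.20 and 0.23 in CD8 T cells, uncalled. Brca2, a central mediator of recombination, stood at 0.09 in TAM, and its partner Palb2 at 0.15, beside 0.35 and 0.49 in CD8 T cells. The helicase Blm, the translocase Rad54l and the recombination mediator Xrcc2 stood between -0.31 and -0.01 in TAM and between 0.23 and 0.51 in CD8 T cells, all uncalled.

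No gene of break sensing and checkpoint signalling was called after SBRT in any population. In TAM 10 of the 11 were below 0 in the authors' deposited table, with a median of -0.19. The lowest were Chek1, the kinase that halts replication, at -0.49 ± 0.26, Clspn at -0.49 ± 0.27 and Topbp1, the activator of the ATR kinase, at -0.48 ± 0.17. The exception was Atm, the kinase that first answers a double-strand break, at 0.29 ± 0.19. Of the 11, 8 were above 0 in CD8 T cells, with a median of 0.07, and Chek1 was highest at 0.35 ± 0.20. In IM the median was -0.08, and the chromatin adaptor Mdc1 was lowest at -0.35 ± 0.15. The end-binding and tethering proteins Rad50, Mre11a and Nbn, which form one complex, stood between -0.31 and -0.19 in TAM, between -0.08 and 0.24 in CD8 T cells and between -0.13 and 0.17 in IM. Atr, Chek2 and Trp53bp1 lay between -0.24 and 0.07 in all 3 deposited SBRT tables.

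End joining and Fanconi genes were also not called after SBRT. Lig4, the ligase that seals joined ends, stood at -0.65 ± 0.28 in TAM, -0.50 ± 0.23 in IM and 0.06 ± 0.20 in CD8 T cells in the authors' deposited tables. The Ku subunits Xrcc5 and Xrcc6 stood at -0.57 ± 0.23 and -0.20 ± 0.23 in TAM, and at 0.28 ± 0.18 and 0.45 ± 0.16 in IM. Both were near 0 in CD8 T cells, at -0.16 and 0.02. Prkdc, Xrcc4 and Dclre1c, which process and hold the ends, lay between -0.26 and 0.23 in the 3 deposited tables. Fancd2, which the core complex marks with ubiquitin, had the lowest value of its group in TAM, at -0.76 ± 0.25 with an adjusted p of 0.088, beside 0.31 ± 0.16 in IM and 0.11 ± 0.21 in CD8 T cells. Its partner Fanci stood at -0.36 ± 0.26, 0.23 ± 0.20 and 0.30 ± 0.19 in the same order. The core complex subunits Fancb and Fancg stood at -0.34 and 0.34 in TAM, -0.32 and -0.21 in IM, and 0.11 and 0.16 in CD8 T cells. Fanca had the highest value of any uncalled Fanconi member, at 0.58 ± 0.20 in CD8 T cells with an adjusted p of 0.19.

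Among the remaining members Polk alone was called. Polk, a polymerase that copies past damaged bases, rose by 0.77 ± 0.23 in TAM in the authors' deposited table, with an adjusted p of 0.037 and a shrunken fold change of 1.70. The call was lost, with an adjusted p of 0.064, when the adjustment ran over all genes with a p. In the other deposited tables Polk stood at -0.43 ± 0.18 in IM and 0.01 ± 0.15 in CD8 T cells. Polh, another translesion polymerase, stood at -0.17 in TAM, the ribonucleotide reductase subunit Rrm2b at -0.10, and the damage sensors of nucleotide excision, Ddb2 and Xpc, at 0.11 and 0.06. None of these 4 was called in TAM, where the authors' test called p53 targets outside repair that are described further on. In IM Ddb2 was the lowest of all members, at -0.54 ± 0.22, and Ung, which removes uracil from DNA, the highest, at 0.69 ± 0.18 with an adjusted p of 0.061. In TAM the 5 nucleotide excision members, which include the scaffold Xpa, the nuclease subunit Ercc1 and the helicase Ercc2, lay between 0.03 and 0.20. The base excision and strand break members Xrcc1, Parp1, Parp2, Lig3 and Ogg1 lay between -0.28 and 0.38 in all 3 deposited SBRT tables, and the mismatch sensor Msh6 stood at -0.36 in TAM, -0.07 in IM and 0.39 in CD8 T cells.

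After the combination of SBRT and IL-12 more members passed the test than after SBRT alone, as did more of all tested genes. The authors' deposited tables gave calls for 3 of 49 in IM, which is 6.12%, beside 6.72% of all tested genes. In TAM 3 members were called, 6.12% beside 4.21%, and in CD8 T cells 11, which is 22.4% beside 7.47%. The share of members in IM was thus no higher than that of all tested genes. All 11 in CD8 T cells rose, where 4.51% of all tested genes rose and 2.96% fell. In TAM Polk rose and Fignl1 and Topbp1 fell, and in IM Fanca and Topbp1 rose and Parp1 fell. The SBRT, IL-12 and combination tables of a population share their unirradiated libraries, so values from them stand side by side here and do not repeat one another independently.

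**Figure D3:**
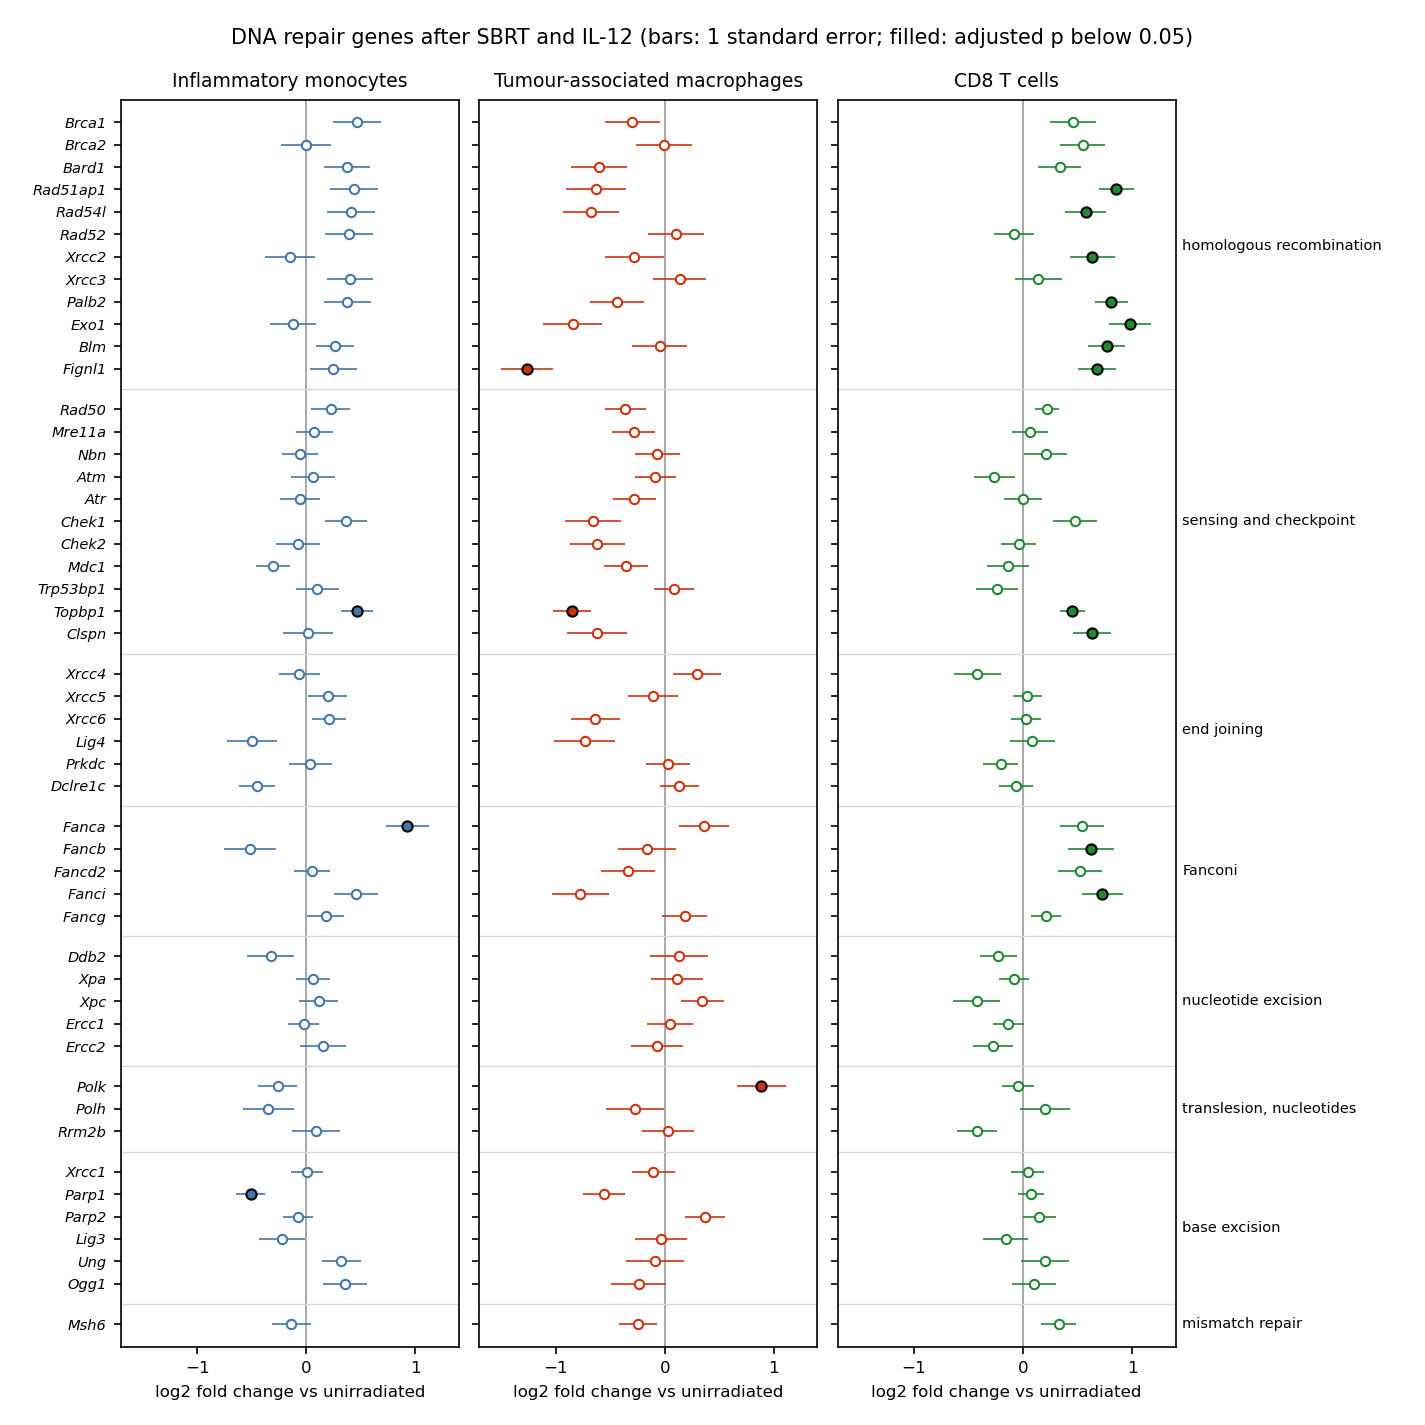
Log2 fold change of each member after SBRT and IL-12 against unirradiated tumours, from the authors' deposited tables, with bars of 1 standard error and filled points for members past the adjusted test. In CD8 T cells 7 of the 11 filled points are recombination genes, and in TAM the 2 filled points left of 0 are Fignl1 and Topbp1.

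Most of the members that rose in CD8 T cells were recombination or Fanconi genes. Of the 12 recombination genes 7 rose, with a median log2 fold change of 0.61, beside a median of -0.03 over all tested genes. Exo1 rose by 0.98 ± 0.19 in the authors' deposited table, with an adjusted p of 5.2e-05, Rad51ap1 by 0.86 ± 0.16 (adjusted p of 1.7e-05) and Palb2 by 0.81 ± 0.15 (adjusted p of 8.7e-06). Blm rose by 0.77 ± 0.17, Fignl1 by 0.68 ± 0.17, Xrcc2 by 0.64 ± 0.21 and Rad54l by 0.57 ± 0.19 in the same deposited table. Of the 5 Fanconi genes Fanci rose by 0.73 ± 0.19 and Fancb, a core subunit, by 0.62 ± 0.21, and the median of the 5 was 0.54. Among the 11 sensing and checkpoint genes Clspn rose by 0.63 ± 0.18 and Topbp1 by 0.45 ± 0.11, while the median of that group was 0.07. None of the 6 end joining, 5 nucleotide excision, 3 translesion and nucleotide supply, or 6 base excision members was called, nor was Msh6, and the nucleotide excision genes had a median of -0.23. When the Wald statistics were scaled by their own spread over all genes, 3 of the 11 calls were kept, those of Exo1, Rad51ap1 and Palb2.

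In macrophages 2 members fell after the combination, Fignl1 of the recombination group and Topbp1 of the sensing and checkpoint group. With 3 of 49 called in TAM, 6.12% beside 4.21% of all tested genes, the calls do not describe either group. Fignl1 fell by 1.26 ± 0.24 on the log2 scale in the authors' deposited table, with an adjusted p of 3.0e-05, and Topbp1 fell by 0.85 ± 0.17, with an adjusted p of 1.5e-04. Polk rose by 0.89 ± 0.23 in the same deposited table, with an adjusted p of 0.0049. Exo1 stood at -0.84 ± 0.27 with an adjusted p of 0.054, and was called when the adjustment ran over genes with a mean level of at least 50, at 0.048. Of the 12 recombination members 10 were below 0, with a median of -0.37, and of the 11 sensing and checkpoint members 10 were below 0, with a median of -0.35. The nucleotide excision members had a median of 0.12 and the end joining members one of -0.04. Over all 49 members the median was -0.16 and 34 were below 0, where the median over all tested genes was 0.00. Of 9 macrophage markers 1 fell in the same deposited table, and of 7 monocyte markers 2 rose and 1 fell, and their part in the result was not tested.

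In inflammatory monocytes the 3 calls were Fanca, Topbp1 and Parp1. Fanca rose by 0.93 ± 0.20 in the authors' deposited combination table, with an adjusted p of 1.4e-04, and by 0.93 in the deposited IL-12 table, with an adjusted p of 2.6e-04, while after SBRT it stood at 0.44 with an adjusted p of 0.54. Zfp276 shares exon sequence with Fanca on the opposite strand. Topbp1 rose by 0.46 ± 0.15 in the authors' deposited combination table, with an adjusted p of 0.031. Parp1, which binds strand breaks and builds poly(ADP-ribose), fell by 0.51 ± 0.13, with an adjusted p of 0.0036. Scaling the Wald statistics by their own spread kept the combination call of Fanca, at 0.012, and lost those of Topbp1, at 0.25, and Parp1, at 0.081. The recombination members had a median of 0.37 in IM after the combination, with 0 of 12 called. Cell type markers changed in the same deposited table: of 7 monocyte markers 2 rose, among them Ly6c2 by 1.10 ± 0.15, and 4 fell, among them Ccr2 by 0.58 ± 0.11, of 9 macrophage markers 3 rose and 1 fell, and of 7 dendritic cell markers 2 rose and 1 fell. After IL-12 alone 2 of the monocyte markers rose and 4 fell in IM. Their part in the IM results was not tested.

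After IL-12 microspheres without radiation few members passed the test. The authors' deposited tables for IL-12 gave a call for 1 of 49 in IM (Fanca, where 3.24% of all tested genes were called), 0 in TAM (0.935%) and 1 in CD8 T cells (Rad51ap1, where 2.52% were). In the TAM table, with no call by the authors' test, the values ran from -0.60 for Lig4 to 0.41 for Atm, and Polk stood at -0.12, Fignl1 at -0.12 and Exo1 at -0.42. In CD8 T cells Rad51ap1 rose by 0.66 ± 0.16, with an adjusted p of 0.0082 in the authors' deposited table, a call lost, at 0.29, when the Wald statistics were scaled by their own spread. The median of the 12 recombination members there was 0.38, with all 12 above 0.

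The response to SBRT differed between macrophages and T cells for 3 recombination genes. The difference of the SBRT effect, TAM minus CD8, passed an adjusted p of 0.05 for 3 of 49 members (0.643% of 29690 genes did): Exo1 at -1.40 ± 0.33 (adjusted p of 0.0074), Rad51ap1 at -1.20 ± 0.32 (adjusted p of 0.032) and Fignl1 at -1.09 ± 0.29 (adjusted p of 0.036). For each of them the effect was below 0 in TAM and above 0 in CD8 T cells. After IL-12 without radiation the same difference was -1.15 ± 0.32 for Rad51ap1, with an adjusted p of 0.096 by the same test. It was -0.84 ± 0.33 for Exo1 (adjusted p of 0.54) and -0.65 ± 0.29 for Fignl1 (adjusted p of 0.74). The difference for Rad51ap1 was thus of similar size with SBRT and with IL-12 alone. TAM and IM differed for 1 member (0.263% of 30093 genes), Polk, at 1.20 ± 0.29 with an adjusted p of 0.015. IM and CD8 T cells differed for 0 members by this normal test (0.02% of 30055 genes), with 7 at an unadjusted p under 0.05, beside 5.03% of all genes. A p above the threshold does not show that the effects were alike: the 95% interval of the IM minus CD8 difference for Exo1 ran from -1.28 to -0.15.

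For the combination the same test passed 10 of 49 members between TAM and CD8 T cells (2.42% of all genes passed). Below 0 were Fignl1 at -1.94 ± 0.29, Exo1 at -1.80 ± 0.33, Fanci at -1.499 ± 0.32, Rad51ap1 at -1.49 ± 0.32 and Topbp1 at -1.30 ± 0.21. Palb2, Clspn, Rad54l and Chek1 followed, from -1.26 to -1.14, and Polk was the one member above 0, at 0.93 ± 0.27. Between TAM and IM 4 members passed (0.914% of all genes): Fignl1 at -1.51 ± 0.32, Topbp1 at -1.31 ± 0.23, Fanci at -1.20 ± 0.33 and Polk at 1.15 ± 0.29. Between IM and CD8 T cells 2 passed (1.89% of all genes), Fancb at -1.15 ± 0.32 and Exo1 at -1.09 ± 0.29. For IL-12 alone no member passed by this normal test in any of the 3 pairs, where 0.0565% (TAM minus IM), 0.195% (TAM minus CD8) and 0.466% (IM minus CD8) of all genes did, and 4, 9 and 1 members had an unadjusted p under 0.05, beside 3.51%, 5.52% and 6.27% of all genes. Members that were below 0 in TAM and above 0 in CD8 T cells numbered 23 of 49 after SBRT, beside 21.9% of all genes, 29 after the combination, beside 23.9%, and 17 after IL-12, beside 24.6%.

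**Figure D4:**
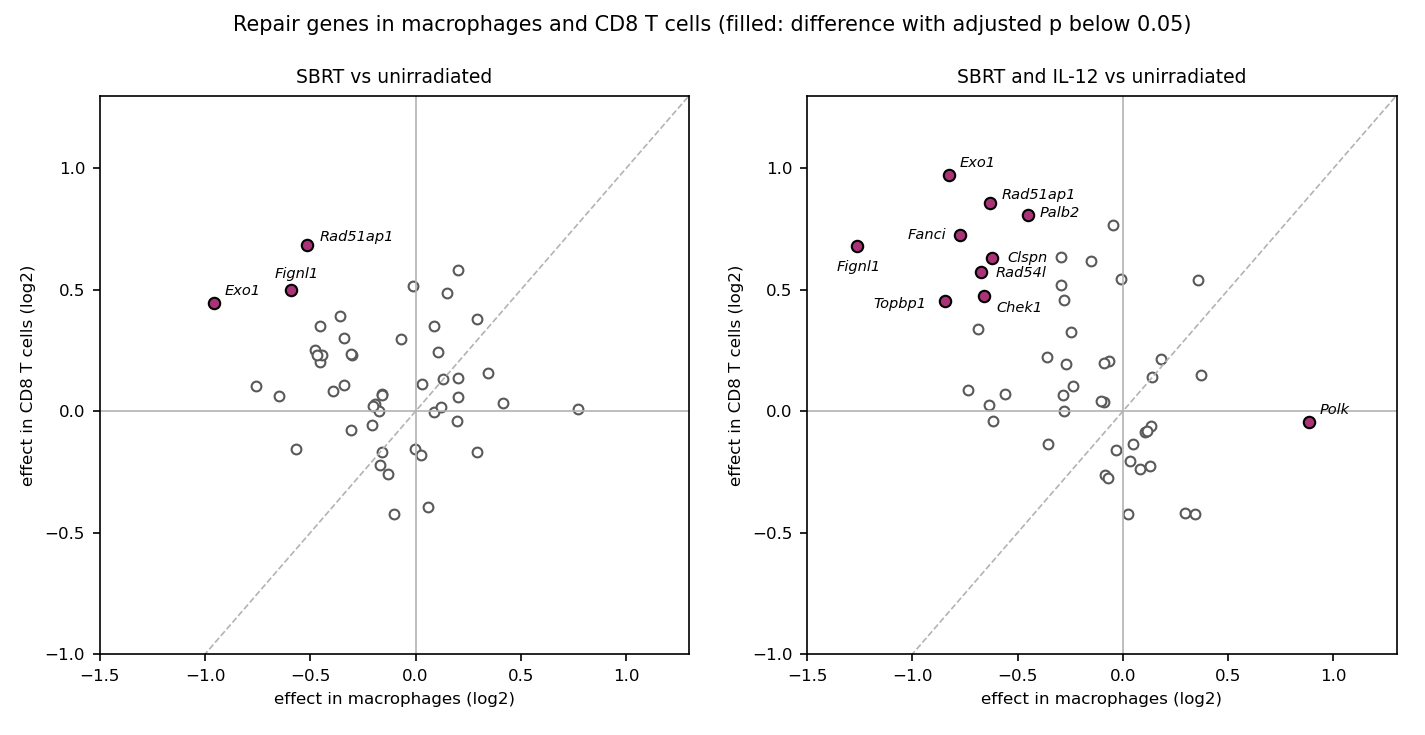
Effect of SBRT (left) and of SBRT with IL-12 (right) on each of the 49 members in TAM (horizontal, log2) against CD8 T cells (vertical, log2), each the Wald statistic times the standard error shared by a population's tables. Filled, named points differ between the populations at an adjusted p under 0.05; after the combination 9 of the 10 lie upper left, lower in TAM and higher in CD8 T cells, and Polk lies to the right.

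A comparison of the combination with IL-12 alone, in which the unirradiated libraries cancel, gives the effect of radiation on top of IL-12 from libraries other than those of the SBRT group. With the shared controls counted as independent, a conservative choice, 0 members passed in IM, TAM or CD8 T cells by the normal test (0%, 0.0741% and 0.00302% of all genes passed), and 0, 3 and 4 members had an unadjusted p under 0.05, beside 0.686%, 1.37% and 1.33% of all genes. The 3 in TAM were Fignl1 at -1.10 ± 0.34, Polk at 0.98 ± 0.32 and Topbp1 at -0.60 ± 0.24. The IL-12 effects used there were -0.16 for Fignl1 and -0.09 for Polk, beside a deposited -0.12 for each. They are Wald statistics times the shared standard error, a median over TAM tables with 2 or 3 treated libraries. The 4 in CD8 T cells, all above 0, were Fancb at 0.66 ± 0.30, Exo1 at 0.58 ± 0.27, Palb2 at 0.43 ± 0.21 and Topbp1 at 0.33 ± 0.16. With the variance of the shared controls removed, Fignl1 (adjusted p of 9.2e-04) and Polk (adjusted p of 0.0030) passed in TAM, where 0.519% of all genes did, and no member passed in IM (0.0518%) or CD8 T cells (0.16%). The combination minus SBRT passed for 0 members in each population by the same test (0.204%, 0.00309% and 0.0755% of all genes in IM, TAM and CD8 T cells), with 0, 1 and 1 at an unadjusted p under 0.05, beside 2.29%, 0.902% and 3.18% of all genes.

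Of 102 other repair genes, the authors' deposited SBRT tables called 1 higher and 2 lower in TAM, 2 higher in IM and 2 higher in CD8 T cells, where 2.08%, 0.519% and 0.471% of all tested genes were called. In TAM Mgmt, which removes alkyl groups from guanine, rose by 1.18 ± 0.25, and the histone H2afx, phosphorylated beside breaks, fell by 0.70 ± 0.18. In IM Rmi2, a partner of Blm, rose by 0.99 ± 0.21 and the polymerase Poli by 0.59 ± 0.15, and in CD8 T cells the tyrosyl phosphodiesterase Tdp2 rose by 0.34 ± 0.09 and the replication fork protein Timeless by 0.48 ± 0.12. After the combination 17 of 101 tested rose and 3 fell in CD8 T cells, among them 8 of 26 recombination genes that rose, such as the nuclease subunit Eme1 by 0.95 ± 0.19. In TAM 1 rose and 4 fell after the combination, and in IM 4 rose and 1 fell, where 7.47% of all tested genes were called in CD8 T cells, 4.21% in TAM and 6.72% in IM. The median of the 102 genes after SBRT was 0.00 in TAM, 0.01 in IM and 0.10 in CD8 T cells.

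Lists of cell cycle genes, p53 targets and mitochondrial transcripts are given beside the repair genes. Of 29 replication and S phase genes, 14 fell after SBRT in TAM in the authors' deposited table, with a median of -0.75, led by the replicative helicase subunits Mcm5 (-1.12 ± 0.22), Mcm6 (-1.02 ± 0.22) and Mcm4 (-0.86 ± 0.21) and by Cdc45 (-1.08 ± 0.26), and 19 fell after the combination, with a median of -0.81. The CD8 T cells showed 5 that rose after SBRT, with a median of 0.36, led by Ccne1 (0.52 ± 0.09) and Prim1 (0.56 ± 0.12), 11 rose after IL-12, and 27 rose after the combination, with a median of 0.72. In IM 1 rose after SBRT (Gins2 at 0.73 ± 0.18) and 7 after the combination. Of 24 mitosis genes 14 fell in TAM after SBRT, with a median of -0.88, and 11 after the combination, while 1 rose in CD8 T cells after SBRT, 19 after IL-12 and 24 after the combination. The proliferation marker Mki67 stood at -0.01 ± 0.25 in TAM and 0.37 ± 0.12 in CD8 T cells after SBRT, uncalled, and rose by 0.86 ± 0.12 in CD8 T cells after the combination. Of 22 p53 targets outside repair, 12 rose in TAM after SBRT, with a median of 0.75, led by Phlda3 at 3.49 ± 0.19 and Cdkn1a, the cell cycle inhibitor p21, at 1.41 ± 0.16. In IM 0 of 21 tested were called by the authors' test after SBRT, and in CD8 T cells 2 rose, among them Cdkn1a by 0.59 ± 0.15. Mitochondrially encoded transcripts had a median of -0.29 in TAM, -0.30 in IM and 0.00 in CD8 T cells after SBRT. The place of the cell cycle, p53 and mitochondrial lists in the repair result was not tested.

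**Figure D5:**
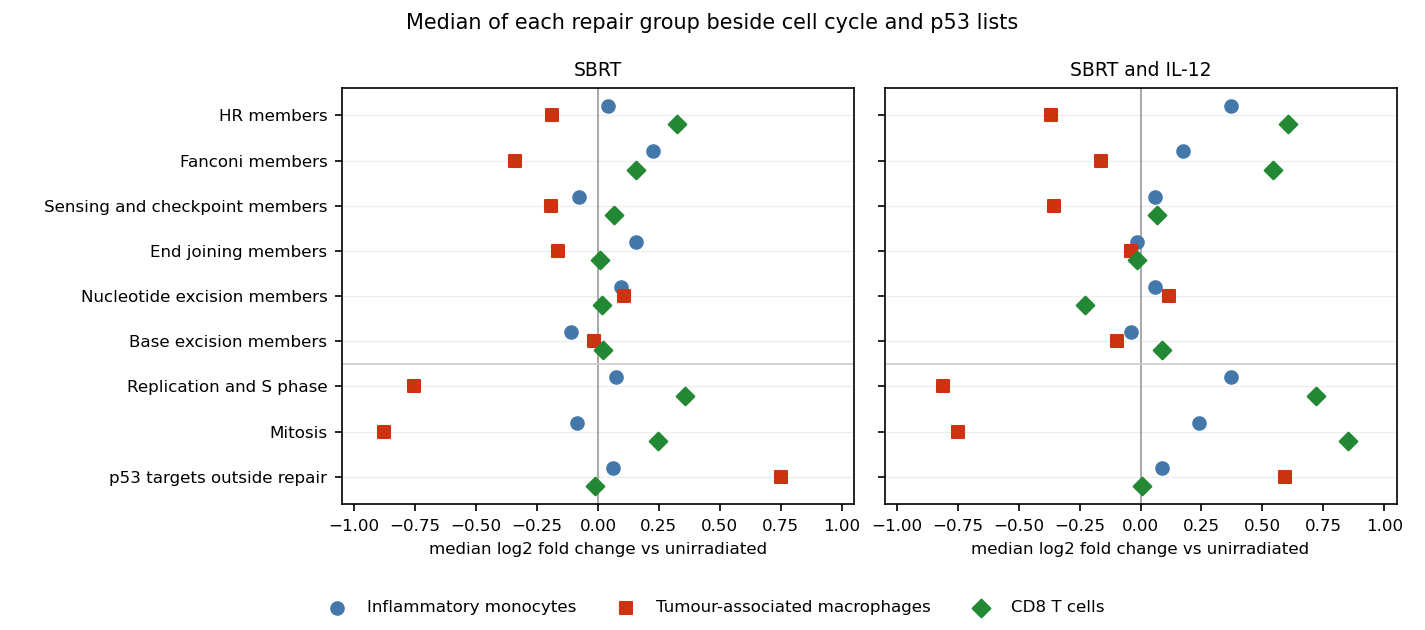
Median log2 fold change after SBRT (left) and SBRT with IL-12 (right) of the repair groups with at least 5 members, and of the replication, mitosis and p53 lists, in IM (circles), TAM (squares) and CD8 T cells (diamonds), from the authors' deposited tables. Recombination, replication and mitosis medians lie left of 0 in TAM and right of 0 in CD8 T cells, while the medians of the nucleotide and base excision groups lie within 0.23 of 0.

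The fold changes of members whose promoter held E2F-type letters are given as a description. In TAM the 7 such members had a median of -0.17 after SBRT and -0.60 after the combination, with Topbp1 called, beside -0.16 and -0.11 for the 33 without, among which Polk and Fignl1 were called after the combination. The medians in CD8 T cells were 0.16 and 0.21 with the letters, and 0.08 and 0.10 without, but after IL-12 alone they were -0.04 with and 0.05 without. In IM they were -0.21 with and 0.01 without after SBRT, and 0.17 and 0.07 after the combination. Of the 11 members that rose in CD8 T cells after the combination, 9 had an entry and 1 of those, Topbp1, held the E2F-type letters.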

How the data were processed

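The members and all lists were chosen with earlier results of these data known. Per the submitters' processing notes, the tools were STAR 2.6.0c, Trimmomatic 0.36, Salmon, Subread with featureCounts, and FastQC 0.11.8, on the GRCm38 build, with no role, order or annotation stated. The values came from 9 comparison tables deposited by the authors, whose columns, per the file headers, are those of a DESeq2 result, for 1 treated group against the unirradiated group. The deposited normalised signal is a mean over the libraries of a population. The log2 fold changes deposited by the authors were shrunken, the Wald statistic is a deposited score, and the deposited p-value equals its 2-sided normal probability. Depth per library is unknown, and p-values measure only the spread between libraries, which may be technical.

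A gene was called at a deposited adjusted p-value under 0.05. The standard error was the ratio of log2 fold change to Wald statistic, as the median over a population's 3 tables. Differences of effects were tested as statistic times that standard error, with a 2-sided normal test whose p was adjusted by Benjamini and Hochberg's method across every gene with a p in both tables. Shrinkage may differ between populations, and its part in the differences was not tested. The calculation was run on simulated data without shrinkage. For SBRT between populations it recovered 48.0% to 68.5% of differences of 1 log2 unit, but 1.01% to 3% of differences of 0.5. Levels per 1000000 are the deposited mean divided by its sum over genes. Alternatives were thresholds of 0.01 and 0.1, other gene sets for the adjustment, centring, scaling of the Wald statistics by their robust spread (an empirical null), each table's own standard error, and removal of control variance. All members were named, with values for those called. From each other list up to 4 genes per SBRT table were eligible, and promoters by rule were those of members called in the SBRT table with most calls (Polk), with 3 more added after their values were seen. Other names were chosen after their values were seen, and 1 gene of the other repair list is counted but not reported here. Gene positions came from GENCODE M21 and promoters from RefSeq. Python 3.11.15, numpy 2.4.6, pandas 2.3.3, scipy 1.17.1 and matplotlib 3.10.9 were used.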

Additional observations from a re-analysis of the deposited data

Results flagged for a closer look

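These differences between populations, in log2 units, passed the test of the difference itself with an adjusted p under 0.05. Polk, the translesion polymerase, responded more in TAM than in IM after SBRT (1.20 ± 0.29, adjusted p of 0.015) and after the combination (1.15 ± 0.29, adjusted p of 0.012), and more in TAM than in CD8 T cells after the combination (0.93 ± 0.27, adjusted p of 0.029).

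Recombination genes responded lower in TAM than in CD8 T cells after SBRT: Rad51ap1 (-1.20 ± 0.32), Exo1 (-1.40 ± 0.33) and Fignl1 (-1.09 ± 0.29). After IL-12 without radiation these differences were -1.15, -0.84 and -0.65 in the same order, none past the test. After the combination the TAM minus CD8 differences were -1.49 for Rad51ap1, -1.25 for Rad54l, -1.26 for Palb2, -1.80 for Exo1 and -1.94 for Fignl1, with adjusted p from 4.5e-08 to 0.0075. Checkpoint and Fanconi genes were likewise lower in TAM than in CD8 T cells: Chek1 by -1.14, Topbp1 by -1.30, Clspn by -1.25 and Fanci by -1.499, with adjusted p from 2.8e-07 to 0.024.

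TAM minus IM after the combination was -1.51 for Fignl1, -1.31 for Topbp1 and -1.20 for Fanci, with adjusted p of 0.0012, 1.6e-05 and 0.037. IM minus CD8 after the combination was -1.09 for Exo1 (adjusted p of 0.013) and -1.15 for Fancb (adjusted p of 0.022).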

How the results depend on the processing

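Of 99 alternatives to the 24 counts of called members, 84 kept the count within 1.5 times, among them every alternative to the 9 counts of differences between populations. For those 9 the alternatives were only each table's own standard error, genes of mean level at least 50, and centring. Thresholds of 0.01 and 0.1 and the empirical null were not run on them, so their stability under those settings was not tested. A count of 0 that stayed at 0 was taken as kept and is part of the 84. This held for IM minus CD8 after SBRT and for every pair after IL-12. At an adjusted p under 0.1 the count was 1 for IM SBRT (0 at 0.05), 3 for IM IL-12 (1), 7 for TAM combination (3) and 2 for CD8 IL-12 (1). At 0.01 it was 0 for TAM SBRT (2) and 0 for CD8 SBRT (1). Under the empirical null it was 1 for IM SBRT (Ung), 1 for IM combination (3), 0 for CD8 SBRT (1), 0 for CD8 IL-12 (1) and 3 for CD8 combination (11). For IM IL-12 it was 2 with the adjustment over genes of mean level at least 50 and 2 when centred, for TAM SBRT 1 with the adjustment over all genes, and for TAM combination minus IL-12 2 with control variance removed (0). Of 275 alternatives to 59 single-gene results, 230 kept the call, 24 lost it, 21 gained it and 0 reversed; the cause of those changes was not tested. No paired analysis was possible because the files hold no value per library, and for the same reason leaving out each replicate was not run. With 2 libraries in 3 of the macrophage groups, 1 library may decide a value, which was not tested.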
